A study of Homo sapiens with 6 samples.

Results

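The genes described here are 10 components of cap-dependent translation initiation: the 4E-binding proteins EIF4EBP1 and EIF4EBP2, the cap-binding proteins EIF4E, EIF4E2 and EIF4E3, the scaffolds EIF4G1, EIF4G2 and EIF4G3, the helicase EIF4A1 and its cofactor EIF4B. They were found through the gene symbols that the array annotation gives for each probe set, a group of short probes summarised as 1 value. Each gene was represented by the probe set of that gene alone with the highest mean over the 6 arrays, so this mean chose the probe set and is not itself a finding. Of the 10 genes, 8 had such a probe set and 7 reached the level minimum of 4.42, the median of all probe sets on the log2 scale, among 12012 genes tested of 19775. The lowest mean inside that limit was that of EIF4EBP1, at 7.25, and EIF4E3 lay outside it at 3.78. EIF4A1 shared each of its 3 probe sets with other genes and is given below as those probe sets, and EIF4G3 was not analysed here. In all, 30 probe sets named a listed gene, 27 of them with no other gene.

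Total RNA was hybridised to Affymetrix U133 Plus 2.0 arrays for Namalwa, Raji and Ramos, 3 established lines of Burkitt lymphoma, a B-cell lymphoma driven by a MYC translocation. For every line 1 sample carried the empty label and 1 the miR26a label, which makes 3 arrays per group and 2 per line. The cells were transfected, and induction of the microRNA with doxycycline at 0.5 µg/ml for 72 h is listed for all 6 samples, the empty ones included. By its title the study concerns repression of miR-26a by MYC and the methyltransferase EZH2 as a target, and the comparison asks which RNAs differ where miR-26a is induced. The labels do not say whether a line and group had more than 1 culture. Each p-value rests on the spread left between these samples once line and group are fitted. limma moderates it, drawing the spread of each gene towards that of all tested genes. The spread left between the samples is how the miR26a difference varies between the 3 lines, together with noise that may be technical. For line differences, the empty and miR26a arrays of a line stand in as its 2 replicates.

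Array medians were 4.36 to 4.44. The Namalwa empty array stood apart in RNA quality, read as the log2 signal of the ACTB control at the 3′ end minus that at the 5′ end. This was 3.58 there and between 1.80 and 1.98 on the remaining 5 arrays. For the listed genes, line differences that use this array were also computed without it, and differences with miR26a without Namalwa. EZH2 was lower on the miR26a array of each line, by -0.76 in Namalwa, -0.31 in Raji and -0.61 in Ramos. All 6 B-cell markers found on the array, of 7 listed, lay above the level minimum, with a summed log2 level of 49.8 to 56.6. Of the markers of other cells, 2 of 8 for T and NK cells (CD3E and CD5), 2 of 7 for monocytes, 3 of 6 for fibroblasts and 2 of 3 for red cells reached the minimum.

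Initiation begins when eIF4E binds the cap at the 5′ end of an mRNA and eIF4G ties it to the helicase eIF4A and, through eIF3, to the small ribosomal subunit. The 4E-binding proteins occupy the eIF4G site on eIF4E and release it when the kinase complex mTORC1 phosphorylates them. eIF4E is limiting in many cells, cooperates with MYC in mouse models of B-cell lymphoma, and its gene is a known MYC target. An array measures RNA, so neither the phosphorylation of 4E-binding proteins nor assembly of the complex was measured.

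The induced microRNA is shown because it defines the groups, and the promoters of EIF4E and EIF4B because EIF4E is the cap-binding subunit and EIF4B had the smallest unadjusted p of the 7 genes with miR26a. All are from RefSeq on GRCh38.p14. Capitals mark the seed, bases 2 to 8, in the microRNA, which is encoded by MIR26A1 (chr3:37969413-37969434, plus strand) and MIR26A2 (chr12:57824658-57824679, minus strand). In the promoters, which run from 250 bases before to 50 after the start, capitals mark CACGTG, the E-box that MYC with MAX can bind.
hsa-miR-26a-5p: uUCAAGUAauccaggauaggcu
EIF4E promoter, chr4:98929084-98929383, minus strand: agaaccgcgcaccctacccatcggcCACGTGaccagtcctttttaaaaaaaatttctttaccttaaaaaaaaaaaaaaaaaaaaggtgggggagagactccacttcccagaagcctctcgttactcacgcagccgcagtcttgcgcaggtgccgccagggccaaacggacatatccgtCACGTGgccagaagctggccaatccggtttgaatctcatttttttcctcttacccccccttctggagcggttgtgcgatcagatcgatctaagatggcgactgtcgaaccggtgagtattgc
EIF4B promoter, chr12:53006206-53006505, plus strand: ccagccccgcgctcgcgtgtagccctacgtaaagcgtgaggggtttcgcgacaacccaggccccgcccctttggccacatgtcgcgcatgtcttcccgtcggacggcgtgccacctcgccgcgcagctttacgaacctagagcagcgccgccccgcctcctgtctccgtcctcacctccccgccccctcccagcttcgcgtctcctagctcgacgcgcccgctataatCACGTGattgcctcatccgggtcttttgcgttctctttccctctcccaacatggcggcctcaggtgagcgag
The letters CACGTG, which read the same on both strands, occurred at -225 and -72 from the start in EIF4E and at -22 in EIF4B. Promoters of 9 of the 10 genes were searched, and EIF4EBP1 was left out. Of their 16 promoters, 3 held the motif (EIF4E, EIF4B and 1 of those of EIF4G1). The motif was in 7.26% of the 35116 promoters of the table. With EIF4EBP1 left out, the count of 3 does not describe the whole list and is no test against that share. The EIF4B transcript starts with C and 4 pyrimidines, the form of a terminal oligopyrimidine tract that marks mRNAs under mTORC1 control, as do 4.07% of all promoters' starts. These matches describe the letters only.

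EIF4EBP1, a well-studied substrate of mTORC1, differed more between the lines than any other listed gene tested. Its log2 level was 7.85 on the empty and 7.90 on the miR26a array of Namalwa, 5.16 and 4.87 in Raji, and 8.88 and 8.86 in Ramos. No line's values overlapped those of another, and both Raji arrays lay less than 1 log2 above the level minimum. Raji was below Ramos by -3.85 (SE 0.13), a 14.4-fold difference that left 6.94% of the Ramos level (limma adjusted p = 2.02e-08). Namalwa was 7.27-fold above Raji (limma adjusted p = 1.57e-07) and 1.98-fold below Ramos (-0.99, limma adjusted p = 0.00132). EIF4EBP1 has 1 probe set, so no other could check it. Without the Namalwa empty array, the Namalwa to Raji difference was 2.96.

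EIF4EBP2, the related repressor, had a much narrower range. It was at 7.36 and 7.44 on the empty and miR26a arrays of Namalwa, 7.89 and 7.77 in Raji, and 7.72 and 7.65 in Ramos. Raji thus held the highest EIF4EBP2 and the lowest EIF4EBP1. Namalwa was below Raji by -0.43 (SE 0.13, limma adjusted p = 0.0180), a call that did not hold when the empty array of Namalwa (-0.34, adjusted p = 0.137) or of Raji (-0.37, adjusted p = 0.101) was left out. A second probe set gave -0.52 and passed, but gave -0.31 and did not pass without the empty array of Namalwa (limma adjusted p = 0.212), and 2 others gave -0.15 and -0.32 and did not pass. Namalwa and Raji each did not differ from Ramos past the threshold, at -0.29 (95% interval -0.57 to -0.0071) and 0.14 (-0.14 to 0.43).

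EIF4E, the cap-binding subunit itself, was nearly level across the lines on its chosen probe set. It was at 9.01 on the empty and 8.66 on the miR26a array of Namalwa, 8.77 and 8.79 in Raji, and 8.93 and 8.80 in Ramos. The Namalwa values overlapped those of both other lines, and both Raji values lay below both Ramos values by a small margin. The differences between lines were 0.05 for Namalwa minus Raji (95% interval -0.25 to 0.36), -0.03 for Namalwa minus Ramos (-0.33 to 0.27) and -0.08 for Raji minus Ramos (-0.39 to 0.22), and none passed. The sign of these small differences changed under other settings. For Namalwa minus Raji the probe sets 201437_s_at, 201436_at and 237718_at gave 0.05, -0.16 and 0.37. None passed with all arrays, and 237718_at came closest (limma adjusted p = 0.0552). Without the Namalwa empty array, which leaves Namalwa with only its miR26a array, they gave -0.0072, -0.65 and 0.43. That none passed thus holds only for the fit with all arrays, and the level across lines depended on the probe set.

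EIF4E2, a cap-binding relative that represses translation of selected mRNAs, was at 8.62 and 8.85 on the empty and miR26a arrays of Namalwa, 9.03 and 8.95 in Raji, and 8.71 and 8.66 in Ramos. Both Raji arrays were above all others, but Raji minus Ramos was 0.31 and did not pass (limma adjusted p = 0.0803). Its probe sets did not go the same way: for Namalwa minus Raji the dim 213570_at gave -0.64 and passed, and 226734_at gave 0.10. For Namalwa minus Ramos 213570_at gave -0.70 and also passed (limma adjusted p = 0.0139), where the main probe set gave 0.05. Without the Namalwa empty array 213570_at gave -0.79 for that pair. For Raji minus Ramos 226734_at gave -0.42 and passed (limma adjusted p = 0.0466), opposite in sign to the main probe set. EIF4E3, a further cap-binding relative, lay under the level minimum on every array, from 3.54 to 4.04, and all 4 of its probe sets were below the minimum by their mean.

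**Figure D1:**
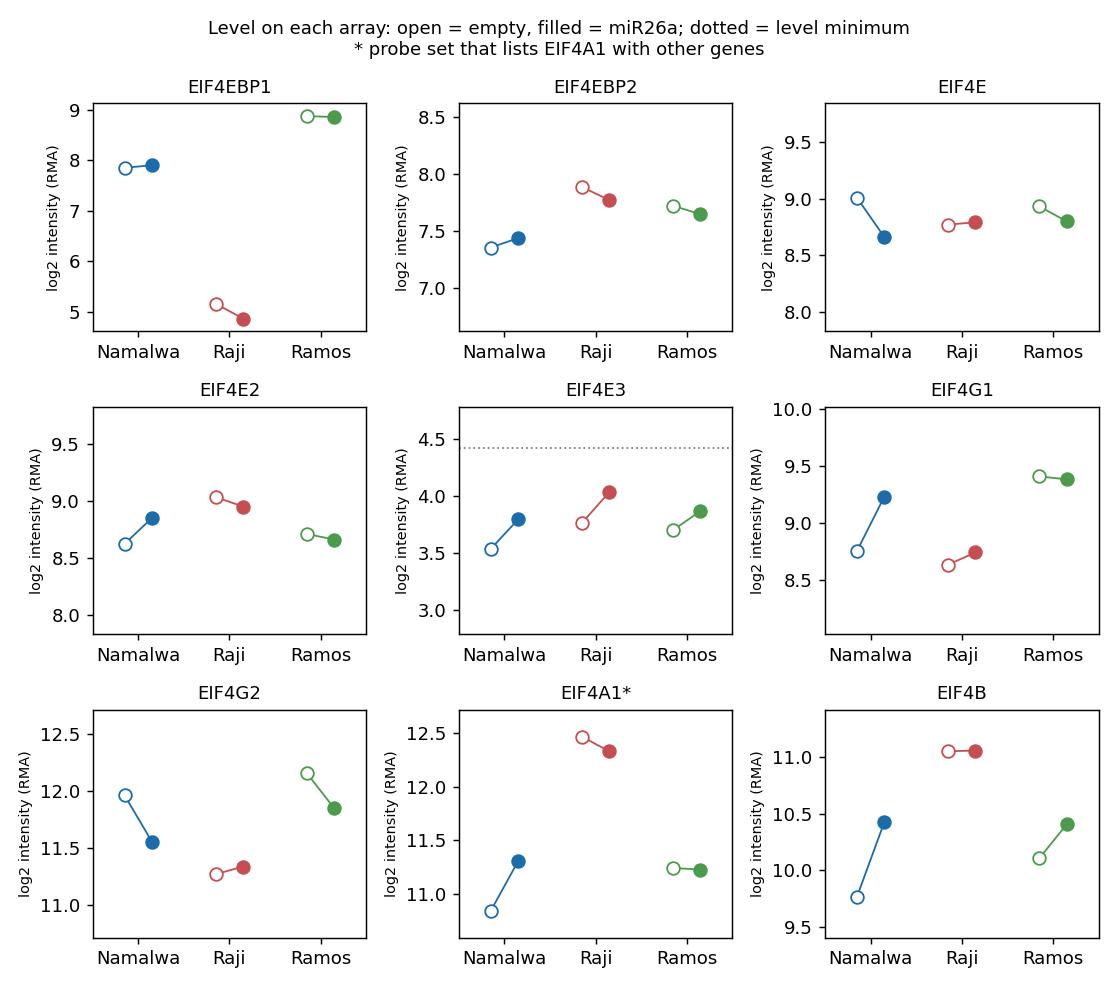
Log2 level (y axis) on each of the 6 arrays, grouped by line (x axis), with open circles for empty and filled circles for miR26a and a line joining each pair; the EIF4EBP1 panel spans a wider range than the others. EIF4EBP1 is at 5.16 and 4.87 in Raji and at 8.88 and 8.86 in Ramos, EIF4E3 lies under the dotted level minimum, and the panel marked with a star is the probe set 201530_x_at, which lists EIF4A1 with other genes.

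Both scaffolds measured were lower in Raji than in Ramos. EIF4G1, the main scaffold of the cap complex, was at 8.76 and 9.23 on the empty and miR26a arrays of Namalwa, 8.64 and 8.74 in Raji, and 9.41 and 9.39 in Ramos. Raji was below Ramos by -0.71 (SE 0.15, limma adjusted p = 0.00300), with no overlap. Namalwa minus Raji was 0.30 and did not pass (limma adjusted p = 0.122), but it was 0.52 and passed when the empty array of Namalwa was left out (adjusted p = 0.0383). Leaving out the miR26a array of Namalwa instead gave 0.086 (limma adjusted p = 0.713). The second EIF4G1 probe set, 208624_s_at, gave 0.92 for that pair and passed in the fit over all probe sets (limma adjusted p = 5.74e-04).

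EIF4G2, also called DAP5, lacks the eIF4E-binding region and serves initiation that does not use eIF4E. It was at 11.96 and 11.56 on the empty and miR26a arrays of Namalwa, 11.27 and 11.34 in Raji, and 12.16 and 11.85 in Ramos. Both Raji arrays were below the other 4. Raji minus Ramos was -0.70 (SE 0.15, limma adjusted p = 0.00301), and Namalwa minus Raji was 0.46 (limma adjusted p = 0.0278). The latter call did not hold when the empty array of Namalwa (0.31, adjusted p = 0.228) or of Raji (0.24, adjusted p = 0.291) was left out. The much dimmer probe set 1557964_at went the other way, with 0.27 for Raji minus Ramos, and did not pass.

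EIF4B, which stimulates the helicase, was highest in Raji. It was at 9.77 on the empty and 10.42 on the miR26a array of Namalwa, 11.05 on both in Raji, and 10.11 and 10.40 in Ramos. Both Raji arrays were above the other 4, while Namalwa and Ramos overlapped. Raji was 1.94-fold above Namalwa (0.95 log2 in size, SE 0.16, limma adjusted p = 9.46e-04) and 1.73-fold above Ramos (0.79, limma adjusted p = 0.00253). Leaving out the empty array of Namalwa gave -0.70 for Namalwa minus Raji, which passed (limma adjusted p = 0.0148). The probe set 211938_at had the same direction, with -0.78 for Namalwa minus Raji and 0.51 for Raji minus Ramos, and passed in both. The probe set 219599_at gave -0.30 and 0.15 and passed in neither with all arrays. Without the empty array of Namalwa it gave a larger difference, -0.65, for Namalwa minus Raji.

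The probe sets that list EIF4A1, the helicase that unwinds the mRNA leader, were also highest in Raji. The probe sets 201530_x_at and 211787_s_at list 5 gene symbols, among them SENP3-EIF4A1 and small nucleolar RNAs hosted by EIF4A1, and 214805_at lists 4, so their level cannot be given to EIF4A1 alone. On 201530_x_at the level was 10.84 and 11.30 on the empty and miR26a arrays of Namalwa, 12.47 and 12.33 in Raji, and 11.24 and 11.23 in Ramos. Both Raji arrays were above the other 4. Over the 3 probe sets, Namalwa minus Raji was -1.33, -1.26 and -1.43, and Raji minus Ramos 1.17, 1.24 and 1.30, and all 6 passed in a fit over 27307 probe sets (limma adjusted p from 7.79e-05 to 4.66e-04). Without the empty array of Namalwa, Namalwa minus Raji was -1.06, -0.997 and -1.62 and passed for all 3. In the fit with all arrays 41.3% and 46% of all probe sets passed. Namalwa minus Ramos was -0.16, -0.02 and -0.13 and passed for none, where 11.3% of all probe sets passed.

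Counted over the 7 tested genes, 4 differed between Namalwa and Raji, where 46.1% of all tested genes passed. EIF4EBP1 and EIF4G2 were higher in Namalwa, as were 23.4% of all genes, and EIF4EBP2 and EIF4B were lower, as were 22.8%. For Raji against Ramos 4 differed, where 50.5% of all genes passed. EIF4B was higher in Raji, as were 26.1% of all genes, and EIF4EBP1, EIF4G1 and EIF4G2 were lower, as were 24.4%. By the chosen probe sets, EIF4EBP1 alone differed between Namalwa and Ramos, being lower in Namalwa, where 14.7% of all genes passed and 6.57% were lower. The shares of the listed genes were near those of all genes in each pair. A difference of at least 2-fold was passed by EIF4EBP1 alone in the pairs with Raji, against 14% and 15.6% of all genes, and by no listed gene between Namalwa and Ramos, against 2.83%. The 3 pairs share arrays.

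**Figure D2:**
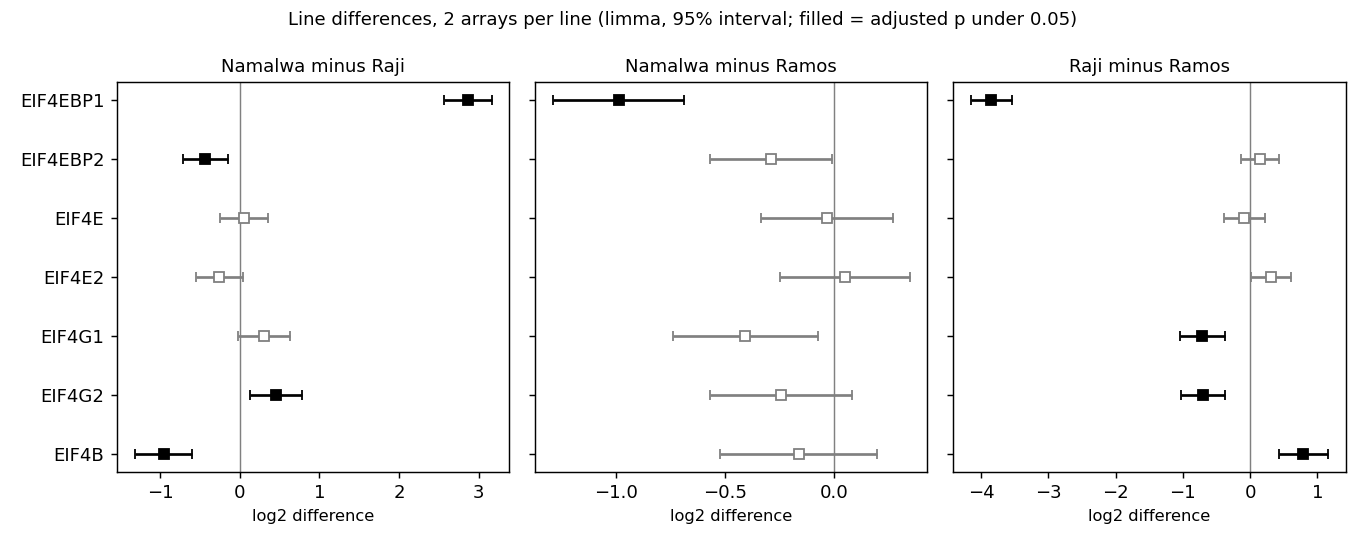
Log2 difference between 2 lines (x axis, a different range in each panel) for the 7 tested genes, with 95% intervals from limma over 2 arrays per line; filled squares passed the threshold of 0.05 after adjustment over all genes. EIF4EBP1 passes in each panel, at 2.86, -0.99 and -3.85, and EIF4E in none.

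None of the 7 genes changed with miR26a past the threshold, nor did any of the 12012 genes tested (0% called by limma, with a smallest adjusted p of 0.0730). At an unadjusted p under 0.05, limma counted 1 of the 7, EIF4B, and 1548 of all genes (12.9%). The median difference of the 7 was -0.04, beside -0.01 over all genes, and their median size without sign was 0.15, beside 0.10. By the probe set chosen for each gene, EIF4B was the 1 gene higher on the miR26a array in all 3 lines, as 15.5% of all genes were. None was lower in all 3 lines, as 19.6% of all genes were, and 6 were mixed. Of all genes, 35.1% had 1 direction in all 3 lines. Other probe sets above the minimum differed from this. On 208624_s_at EIF4G1 was higher by 0.38, 0.26 and 0.20 in Namalwa, Raji and Ramos (mean 0.28, limma adjusted p = 0.355), and by 0.23 without Namalwa. Also higher in all 3 lines were 213570_at and 226734_at of EIF4E2 and 211938_at of EIF4B. Lower in all 3 were 201436_at and 237718_at of EIF4E. With 3 pairs, an exact two-sided test by sign flipping could not go below p = 0.25.

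In EIF4B the Namalwa pair differed by 0.66, the Raji pair by 0.01 and the Ramos pair by 0.30. Its mean was 0.32 (SE 0.13, 95% interval 0.03 to 0.61), with an unadjusted p of 0.0361 and an adjusted p of 0.341 in limma. Without Namalwa, the line with the array that stood apart in ACTB, it was 0.15, and without Raji 0.48. The other EIF4B probe sets gave 0.13 and -0.12, and 0.12 each without Namalwa.

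For EIF4E the Namalwa pair differed by -0.34, the Raji pair by 0.02 and the Ramos pair by -0.13, with a mean of -0.15 (SE 0.11, 95% interval -0.40 to 0.10, limma adjusted p = 0.613). In Namalwa the difference was 0.48 for the scaffold EIF4G1 and -0.41 for EIF4G2. In Raji these differences were 0.11 and 0.07, and in Ramos -0.03 and -0.31. The means were 0.19 (limma adjusted p = 0.563) and -0.21 (limma adjusted p = 0.494). Without Namalwa the mean was 0.041 for EIF4G1, -0.12 for EIF4G2 and -0.055 for EIF4E. The repressors EIF4EBP1 and EIF4EBP2 had means of -0.09 (95% interval -0.33 to 0.16) and -0.04 (-0.27 to 0.19), and EIF4E2 of 0.03 (-0.21 to 0.28). Without Namalwa these were -0.16, -0.095 and -0.066. For EIF4E, EIF4E2, EIF4G1, EIF4G2 and EIF4B the Namalwa pair gave the widest difference of the 3 lines.

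**Figure D3:**
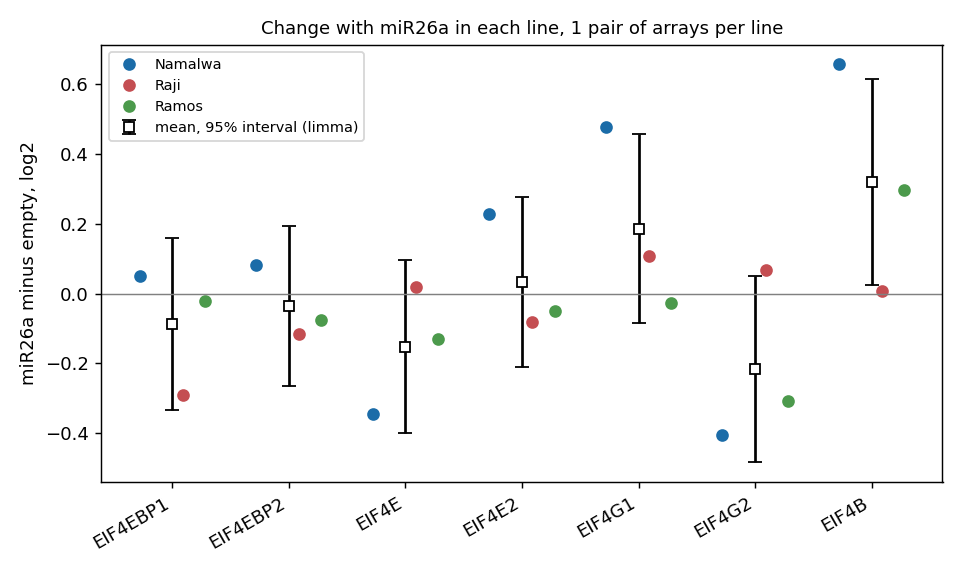
Log2 difference of miR26a minus empty (y axis) for the 7 tested genes, with 1 point per line and the mean with its 95% interval from limma. EIF4B is above 0 in each line, at 0.66, 0.01 and 0.30, and the other genes have points on both sides of 0.

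The EIF4E probe set 201436_at had a larger mean difference with miR26a than the other EIF4E probe sets and is named after its values were seen. On 201436_at the level was 8.23 on the empty and 6.70 on the miR26a array of Namalwa, 7.74 and 7.52 in Raji, and 8.05 and 7.18 in Ramos. It was lower on each miR26a array, at 34.8%, 85.8% and 54.8% of the empty level. By their chosen probe sets, 19.6% of all genes were lower in all 3 lines. No such share was computed over all probe sets, and 201436_at is not the chosen one. The mean difference was -0.87 (SE 0.21, 95% interval -1.34 to -0.41), rank 324 of 27307 probe sets by p, and did not pass (limma adjusted p = 0.183, unadjusted p = 0.00217), in a fit where 0.00366% of probe sets passed. Without Namalwa it was -0.54 (limma adjusted p = 0.294), and without Raji -1.20. The 3 other EIF4E probe sets above the minimum gave -0.15, -0.08 and -0.10. Of these, 237718_at was also lower in each line, at -0.02, -0.21 and -0.09 in Namalwa, Raji and Ramos. So was 242674_at, which lies below the minimum, at -0.55, -0.10 and -0.34. Which part of the transcript each probe set reads was not analysed here, and the part of RNA quality on the Namalwa empty array in this difference was not tested.

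**Figure D4:**
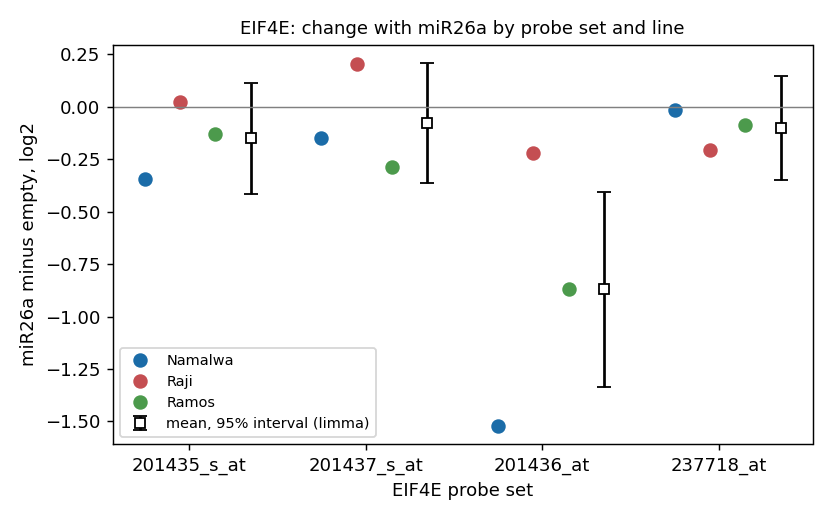
Log2 difference of miR26a minus empty (y axis) for the 4 EIF4E probe sets above the level minimum (x axis), with 1 point per line and the mean with its 95% interval from limma. 201436_at is at -1.52, -0.22 and -0.87 in Namalwa, Raji and Ramos, while the means of the others are between -0.15 and -0.08.

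Other initiation genes were read from 5 lists with 74 genes, of which 67 were tested. With miR26a none of the 67 passed in limma, 9 (13.4%) had an unadjusted p under 0.05, beside 12.9% of all genes. In all 3 lines 14 (20.9%) were lower and 16 (23.9%) higher, beside 19.6% and 15.5% of all genes. In the comparison of Namalwa with Raji 29 passed (43.3%, beside 46.1% of all genes), of which 15 were higher in Namalwa. For Raji against Ramos 35 passed (52.2%, beside 50.5%), of which 15 were higher in Raji, and for Namalwa against Ramos 12 passed (17.9%, beside 14.7%), of which 5 were higher in Namalwa.

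Among 12 tested helpers and relatives of the cap complex, the median difference with miR26a was 0.04, beside -0.01 over all genes, with 4 higher and 3 lower in all 3 lines, beside 15.5% and 19.6% of all genes. PAIP2B, an inhibitor of poly(A)-binding protein, was higher by 0.66, 0.69 and 0.21 in Namalwa, Raji and Ramos (limma adjusted p = 0.128). LARP1, which binds the cap of terminal oligopyrimidine mRNAs, was lower by -0.80, -0.31 and -0.40 (limma adjusted p = 0.130), and its 3 other probe sets above the minimum had the same sign. NCBP2, a subunit of the nuclear cap-binding complex, was lower in Raji, with Raji minus Ramos at -0.85 (limma adjusted p = 3.54e-04). EIF4H, a helicase cofactor like EIF4B, was also lower in Raji, at -0.54 against Ramos (limma adjusted p = 0.00437).

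Of 16 tested genes of mTORC1, S6 kinase and MNK control, 9 differed between Namalwa and Raji, where 46.1% of all genes did. In Raji against Ramos 10 differed, where 50.5% of all genes did, and 6 of them were higher in Raji, as were 26.1% of all genes. DEPTOR, an inhibitor of mTOR, was at 5.87 and 6.33 on the empty and miR26a arrays of Namalwa, 7.57 and 7.90 in Raji, and 5.33 and 5.72 in Ramos. Raji was 3.11-fold above Namalwa (limma adjusted p = 4.64e-06) and 4.61-fold above Ramos (limma adjusted p = 4.84e-07). DEPTOR was also higher on each miR26a array, by 0.39 on average, and did not pass there (limma adjusted p = 0.145). RHEB, the GTPase that activates mTORC1, was lower in Raji, at -0.77 against Ramos (limma adjusted p = 6.70e-04). Of its 8 other probe sets above the minimum, 7 were also lower in Raji than in the mean of the other lines. The highest difference among them was 0.21. MKNK1, a kinase that phosphorylates eIF4E, was lower in Raji too, at -1.40 against Ramos (limma adjusted p = 1.70e-04).

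Of 16 tested genes of eIF2, its exchange factor eIF2B and the eIF2 kinases, 6 were lower and 3 higher with miR26a in all 3 lines, beside 19.6% and 15.5% of all genes. EIF2S1, the eIF2 subunit that the stress kinases phosphorylate, was lower by -0.43, -0.16 and -0.38 in Namalwa, Raji and Ramos (limma adjusted p = 0.242). PPP1R15B, a regulatory subunit of the eIF2 phosphatase, had -0.41, -0.09 and -0.32 (limma adjusted p = 0.324). EIF2B5, the catalytic subunit of eIF2B, was lower in Raji by -1.40 against Ramos (limma adjusted p = 2.06e-05). EIF2AK3, the kinase PERK, was lower by -1.03 (limma adjusted p = 1.27e-04).

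Of 13 eIF3 subunits, 5 differed between Namalwa and Raji and 5 between Raji and Ramos, where 46.1% and 50.5% of all genes did. EIF3G was higher in Raji than in Ramos by 0.84 (limma adjusted p = 8.06e-04), and EIF3B had a Raji minus Ramos difference of -1.13 (limma adjusted p = 4.85e-05). Of 10 scanning and joining factors, 6 differed between Namalwa and Raji, beside the same 46.1% of all genes. EIF5A, which helps ribosomes past difficult peptide bonds, was at 7.87 and 9.25 on the empty and miR26a arrays of Namalwa, 10.16 and 10.36 in Raji, and 9.28 and 9.43 in Ramos. The Namalwa empty array was the lowest of the 6. Raji exceeded Namalwa 3.26-fold in EIF5A (limma adjusted p = 4.60e-04), and 2.15-fold when the empty array of Namalwa was left out (limma adjusted p = 0.00112).

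Genes with a like pattern over the 6 arrays were ranked by Pearson's r, as a description over 12005 genes, with arrays that share lines. For EIF4EBP1 these were TCL1A (r = 0.9993), DOCK10 (0.999) and TET2 (0.998). As many as 845 genes had r over 0.95 with EIF4EBP1, against 202 for EIF4B and 15 for EIF4E. TCL1A, a coactivator of AKT, was at 8.01 and 7.75 in Raji and at 11.04 to 12.09 on the other 4 arrays. For EIF4B the highest were TRIM66 (0.997), ATF3 (0.996) and ROMO1 (0.9945), and for EIF4E they were INTS2 (0.987), C2CD5 (0.986) and NOCT (0.985).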

How the data were processed

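The deposited values are log2 intensities of 54675 probe sets that the authors made with RMA, per the labels' design text, which names BRB Array Tools; GCOS is also named, again with no version, per the submitters' processing notes. RMA sets probe intensities to a common distribution across arrays before it summarises them, so a shift of all RNAs one way would be largely removed, while array medians of the summarised values may still differ slightly; the number of arrays limits the precision. Groups and lines came from the labels. Symbols were updated through Entrez IDs for 41037 probe sets with a RefSeq table of GRCh38.p14; 41091 probe sets carried 1 gene, 1801 several and 11721 none, and 62 were controls.

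limma (3.58.1, R 4.3.3) was fitted to all tested genes with line and group as terms (2 residual degrees of freedom), with Benjamini-Hochberg adjustment over all genes and a threshold of 0.05; fold changes are on the log2 scale of RMA. Probe sets shared with other genes were read from a fit of all 27307 probe sets above the minimum, added after seeing the data. Pairing comes from the line names. As a check, each array's deviations from its group mean were correlated within a line, giving 0.861 (Namalwa), 0.950 (Raji) and 0.917 (Ramos). The fit was tested on simulated data, in which lines differed only where a change was added, unlike the real data. Changes of 0.5 log2 were recovered in 2.7% of cases for miR26a minus empty and 0% for Namalwa minus Raji. Changes of 1 log2 were recovered in 98.95% and 94.85%. Each simulated run changed 200 of 12012 genes, far fewer than differ between the real lines. In the real data EIF4EBP2 (-0.43) and EIF4G2 (0.46) passed for Namalwa minus Raji. The recovery simulated for that pair thus does not carry over to the real line differences. In any of these comparisons, a difference of about 0.5 log2 or less that did not pass is no sign that there was none. Alternatives were other scalings, level minimums, probe set rules, priors and blocks, no moderation, and leaving out a line or array.

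The genes, the 5 lists, the marker lists and the alternatives were chosen with earlier results of these data known. Named from each list were up to 3 genes by smallest p with miR26a and up to 2 by the largest difference of Raji from the other lines; not all of these are printed. Like patterns were taken as the 3 highest r for EIF4E, EIF4EBP1 and the other listed gene with the largest SD.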

Additional observations from a re-analysis of the deposited data

How the results depend on the processing

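Of 399 values of the listed genes under the alternatives listed with the methods, 368 kept their direction and side of the threshold, 15 lost a call, 3 gained one and 13 changed sign without a call on either side. No listed gene was called with miR26a under any of the 12 alternatives, and with no replicate block, that is without the pairing by line, the count was also 0. Leaving out Namalwa, Raji or Ramos gave 0, 203 and 23 called genes among all tested, against 0 with all lines, and a level minimum at the 75th percentile gave 50 and an intensity trend with a robust prior 102; the cause was not tested. Without moderation of the spread the listed genes called were 1 for Namalwa minus Raji, 0 for Namalwa minus Ramos and 1 for Raji minus Ramos; that fit has 2 residual degrees of freedom. Leaving out an array gave 2 to 4 for Namalwa minus Raji, the lowest without the Raji empty array. With the mean of a gene's probe sets, EIF4EBP2 (Namalwa minus Raji -0.35, adjusted p = 0.0549 in limma) and EIF4G2 (Namalwa minus Raji 0.12, Raji minus Ramos -0.21) were no longer called, EIF4G1 was called for Namalwa minus Raji (0.61), and EIF4E2 for Namalwa minus Ramos was -0.22. Quantile normalisation again turned EIF4E to 0.048 for Namalwa minus Ramos and 0.041 for Raji minus Ramos, and EIF4E2 was called for Raji minus Ramos (0.42).

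Some uncalled differences changed sign when a line or array was left out. With miR26a, EIF4E2 ranged from -0.066 to 0.089, EIF4EBP1 from -0.16 to 0.014, EIF4EBP2 from -0.095 to 0.0037, 201530_x_at from -0.076 to 0.23 and 211787_s_at from -0.079 to 0.21. For Namalwa minus Raji, EIF4E ranged from -0.090 to 0.20, and for Raji minus Ramos from -0.21 to 0.045. For Namalwa minus Ramos, EIF4B ranged from -0.41 to 0.092, EIF4E from -0.17 to 0.11, EIF4E2 from -0.095 to 0.20, 201530_x_at from -0.43 to 0.11, 211787_s_at from -0.28 to 0.25 and 214805_at from -0.32 to 0.056. Among further probe sets, in values added after seeing the data, 208770_s_at and 208769_at of EIF4EBP2 turned to 0.019 and 0.017 for Namalwa minus Raji without the Namalwa empty array, and 219599_at of EIF4B to 0.12 with miR26a without Namalwa. Where a line or array was left out, a lone array of a line is assumed to vary like the others. Raji EIF4EBP1 lies less than 1 log2 above the level minimum, and EIF4E3 below it.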
